A study of Mus musculus with 6 samples.

Results

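The cluster of miR-191 and miR-425 consists of the Mir191 and Mir425 precursors, which lie close together on mouse chromosome 9. It was measured here in T cell blasts and in small EVs from the supernatants of such cultures. Its members were taken by name as the rows of mmu-miR-191-5p, mmu-miR-191-3p, mmu-miR-425-5p and mmu-miR-425-3p. All 4 arms were listed, out of 451 miRNAs in the table. Small RNA NGS was performed on 3 libraries each of T cell blasts and small EVs, which carry the numbers 1, 2 and 5 in either group and are described as independent experiments. Both groups came from wild-type C57BL/6 mice aged 8 to 12 weeks, whose total splenocytes, after lysis of erythrocytes, were stimulated with 2 µg/ml of the T cell mitogen concanavalin A, washed after 36 h and expanded with 50 U/ml IL-2 in medium with EXO-free FBS. Supernatants of day 6 cultures were cleared by serial centrifugation, and small EVs were collected in a final spin at 100000 g. The cells were not sorted in these protocols, although the study also calls them CD4+ T cells, so they are called T cell blasts here.

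A miRNA precursor is a hairpin from which the RNase DICER releases a 5p and a 3p arm, and the arm that is loaded into an Argonaute protein directs the silencing of mRNAs that pair with its seed, bases 2 to 8. In lymphocytes miR-191 is known to sustain T cell survival and to target mRNAs of transcription factors such as Egr1 and Foxp1, and in many tissues mmu-miR-191-5p is used as a reference for qPCR because its level is taken as steady. Small EVs, which include exosomes, carry miRNAs of the cell that releases them, and some miRNAs are enriched or depleted in EVs relative to that cell.

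The mature sequences are shown because the reads were assigned to them and because the seed decides which mRNAs a miRNA pairs with. They are those of RefSeq on GRCm38.p6, 5′ to 3′, with the seed in capitals, and all lie on the plus strand of chromosome 9.
mmu-miR-191-5p: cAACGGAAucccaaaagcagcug
mmu-miR-191-3p: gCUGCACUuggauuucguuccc
mmu-miR-425-5p: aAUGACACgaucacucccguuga
mmu-miR-425-3p: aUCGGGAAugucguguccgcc
Their positions are chr9:108568325-108568347, chr9:108568367-108568388, chr9:108568789-108568811 and chr9:108568830-108568850, in the same order. The 4 arms carry 4 different seeds. Among 1678 mature mouse sequences, a seed was shared only by mmu-miR-425-5p, with mmu-miR-489-3p, which is not listed among the 451 miRNAs. The nearest other mature sequence was 8 edits away for each 5p arm and 7 edits away for each 3p arm, so the members do not have the near-identical copies that make the reads of some miRNA families ambiguous.

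The precursors are shown with their arms in capitals, since the level of each arm was measured separately.
Mir191: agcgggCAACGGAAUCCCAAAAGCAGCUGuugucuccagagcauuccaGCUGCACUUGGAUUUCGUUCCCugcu
Mir425: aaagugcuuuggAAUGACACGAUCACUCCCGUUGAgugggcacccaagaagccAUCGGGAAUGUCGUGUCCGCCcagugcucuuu
Mir191 spans 74 bases (chr9:108568319-108568392) and Mir425 spans 85 bases (chr9:108568777-108568861), with 384 bases between them. The host annotation differed between sources. The RefSeq gene Dalrd3, which encodes a protein with a DALR anticodon-binding domain, extends from 108567484 to 108572773 and includes both precursors. In GENCODE vM21 on GRCm38, none of the 9 Dalrd3 transcripts covers them, and the gene starts 1024 bases after Mir425. There both precursors lie in an exon of 4833445I07Rik-201, a transcript of a lincRNA gene on the same strand, while Mir191 lies in an intron of 4833445I07Rik-202 and Mir425 lies outside that transcript. The cluster thus lies within Dalrd3 by the extent of the RefSeq gene and not by GENCODE, and whether it lies in an intron of a RefSeq transcript was not examined here. GENCODE also annotates a predicted miRNA gene, Gm24083, over Mir191 on the opposite strand.

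The values are normalized CPM, read counts relative to library size, scaled by the authors with TMM, a method that aligns libraries on the bulk of their miRNAs. Within a library they moved in equal steps, each worth 1 read, so the reads behind each value could be recovered. Listed miRNAs took 236432 to 279737 reads per cell library and 261393 to 463498 reads per EV library. A count of 0 allows up to 3 reads, which were worth 11.0 to 14.4 CPM in cell libraries and 6.28 to 10.4 CPM in EV libraries, and intervals on shares of reads cover only counting error. The comparison used limma on log2(CPM + 1) over all 451 miRNAs, at the adjusted p of 0.2 given in the study's methods. The study tested with edgeR, and its heat map of T cells and exosomes showed only miRNAs under a stricter adjusted p. That of mmu-miR-191-5p, 0.0656 in limma, did not reach the stricter value. Of all miRNAs, 21.1% were called higher and 12.4% lower in small EVs, or 95 and 56 miRNAs, and 81 and 78 when libraries were scaled on miRNAs below 5% of each library only. The abundant mmu-miR-5099 alone held 12.4 to 14.2% of cell reads and 1.88 to 4.16% of EV reads, which bears on scaling to the total of a library. Markers of other cells moved with the groups as well. All 3 red cell miRNAs (summed level 109 to 134 CPM in cells and 653 to 943 CPM in small EVs), the 1 measured of 2 myeloid miRNAs (0 to 3.67 CPM and 15.3 to 20.9 CPM) and the 3 measured of 5 stromal and endothelial miRNAs (47.9 to 66.0 CPM and 556 to 817 CPM) were called higher in small EVs. Of these, mmu-miR-451a, mmu-miR-144-3p and mmu-miR-199a-3p had no read in the cells, and the liver marker mmu-miR-122-5p was not listed. The 5 lymphocyte miRNAs summed to 84643 to 106594 CPM in cells and 50161 to 69157 CPM in small EVs, and 2 of them were called higher and 2 lower. The source of the markers of other cells, and their part in the results below, was not tested.

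The most abundant arm of the cluster, mmu-miR-191-5p, was higher in small EVs than in T cell blasts, by 1.38-fold in the means. The other 3 arms had higher means in small EVs too, but none of them passed in the main fit. That fit was limma on the deposited values of all 6 libraries, without the replicate number as a block. Thus 1 of 4 members (25%) was called higher and 0 lower in limma, against 21.1% and 12.4% of all miRNAs, which is close to the background for so few members. When the fit included the replicate number as a block, 3 of 4 members passed in the same direction, against 23.5% of all miRNAs. The labels do not state that a number marks a pair, and the pairing was taken from these same values. Small EVs 1 correlated with T cell blasts 2 (r = 0.17) about as much as with T cell blasts 1 (0.15). The 4 arms share the same libraries and locus, so their calls are not separate results.

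In T cell blasts 1, 2 and 5, mmu-miR-191-5p had 48371, 51345 and 59522 CPM, from 12913, 14006 and 12437 reads. In small EVs 1, 2 and 5 it had 68215, 82343 and 69577 CPM, from 32566, 37703 and 20039 reads. Every small EV library was therefore above every library of cells, and the lowest EV value exceeded the highest cell value by less than the range within either group. The cells averaged 53079 ± 5774 CPM and the small EVs 73378 ± 7793 CPM (SD, n = 3 each). The log2 difference was 0.47 (standard error 0.15, 95% interval 0.12 to 0.82, adjusted p = 0.0656, limma). In the exact permutation test the 2-sided p was 0.1, the smallest that 3 against 3 libraries can give. Groups did not overlap, with small EVs above, for 20.4% of all miRNAs.

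As a share of the reads over listed miRNAs, mmu-miR-191-5p took 4.68% (95% Clopper-Pearson interval 4.61 to 4.76%), 5.01% (4.93 to 5.09%) and 5.26% (5.17 to 5.35%) in T cell blasts 1, 2 and 5. In small EVs 1, 2 and 5 it took 7.03% (6.95 to 7.10%), 8.70% (8.61 to 8.78%) and 7.67% (7.56 to 7.77%). Such a share scales each library to its own total, as the setting of an equal sum does. Under that setting the log2 difference of mmu-miR-191-5p was 0.64, the highest of its alternatives, and the median of all miRNAs was 0.19. At this depth the counting intervals were narrow, and the differences among libraries of 1 group were larger than counting error. The replicate spread, not the depth, thus sets the precision of the comparison. A CPM is a share of a library, so a higher CPM in small EVs gives neither the number of cells or vesicles nor the copies in each of them.

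The place of mmu-miR-191-5p among the listed miRNAs was the same in each library of a group, 6th in all T cell blasts and 4th in all small EVs. By group means in cells it ranked 7th. It stood there just below mmu-miR-142a-5p, restricted to hematopoietic cells (62334 ± 5728 CPM, SD, n = 3), and mmu-miR-182-5p, a miRNA induced in activated T cells (56660 ± 21164 CPM, range 40332 to 80570 CPM). Its values overlapped with those of both. It stood above mmu-let-7f-5p (35786 ± 1656 CPM), of the let-7 family of growth-restraining miRNAs, and mmu-miR-16-5p (30398 ± 2401 CPM), a regulator of the cell cycle, and was separate from both. In small EVs it stood below mmu-miR-21a-5p (125287 ± 11704 CPM), a miRNA raised in many activated cells, without overlap, and below mmu-miR-27b-3p (89325 ± 11718 CPM), with overlap. There mmu-miR-182-5p (40585 ± 810 CPM) and mmu-let-7f-5p (34196 ± 7649 CPM) followed it without overlap. These levels are compared per read of a whole mature miRNA, so no correction for length applies. The study cautions, however, that protocols of small RNA sequencing are biased for particular miRNAs. Levels of different sequences, here and below, are therefore compared as reads and not as molecules.

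The second 5p arm, mmu-miR-425-5p, was far rarer. It had 1184, 1224 and 1646 CPM in T cell blasts 1, 2 and 5, from 316, 334 and 344 reads. Small EVs 1, 2 and 5 had 1613, 1562 and 2024 CPM, from 770, 715 and 583 reads. The groups overlapped, because T cell blasts 5 lay above small EVs 1 and 2, while library 5 was the highest of its group in both. The cells averaged 1351 ± 256 CPM and the small EVs 1733 ± 254 CPM (SD, n = 3 each), or 1.28-fold. This difference missed the threshold (log2 difference 0.36, standard error 0.18, 95% interval -0.05 to 0.78, adjusted p = 0.224, limma), and the exact permutation test gave a 2-sided p of 0.3.

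Within each number, however, mmu-miR-425-5p was higher in the small EVs than in the cells, by 0.45, 0.35 and 0.30 on the log2 scale for numbers 1, 2 and 5. Once the replicate number entered the fit as a block, the log2 difference of 0.36 had a standard error of 0.13 (95% interval 0.07 to 0.66) and passed (adjusted p = 0.0764, limma). For mmu-miR-191-5p the differences within numbers were 0.50, 0.68 and 0.23, so number 2 gave the largest and number 5 the smallest. Its call was the same with the block (standard error 0.17, adjusted p = 0.0751, limma).

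**Figure D1:**
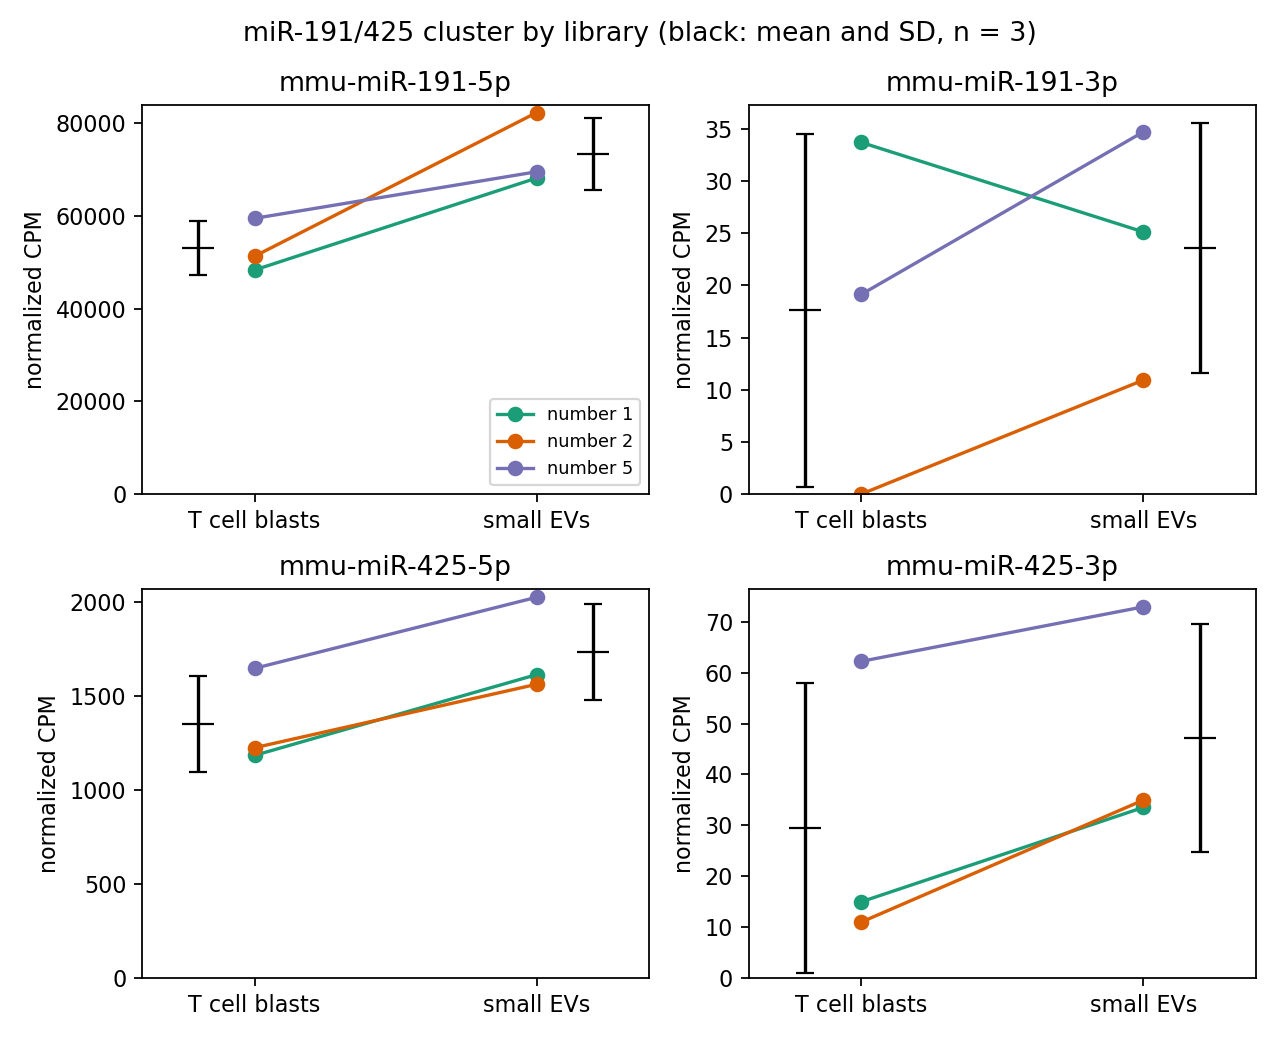
Normalized CPM of the 4 arms of the cluster in T cell blasts and small EVs, on linear axes that start at 0 and differ between panels. Points are libraries, lines join libraries with the same number, and black marks give the mean and SD of 3 libraries. The groups are separate for mmu-miR-191-5p only, and the lines run upward for all numbers in both arms of Mir425.

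The plot of the 4 arms by library also shows how low the 3p arms were. For mmu-miR-425-3p the values were 15.0, 11.0 and 62.2 CPM in T cell blasts 1, 2 and 5, from 4, 3 and 13 reads, and 33.5, 34.9 and 72.9 CPM in small EVs 1, 2 and 5, from 16, 16 and 21 reads. T cell blasts 5 again lay above small EVs 1 and 2, so the groups overlapped, and number 5 was the highest in both. The log2 difference was 0.97 (standard error 0.67, 95% interval -0.58 to 2.53, adjusted p = 0.399 in limma), and exact permutation gave a 2-sided p of 0.3. With the replicate number as a block it passed (standard error 0.43, 95% interval 0.01 to 1.94, adjusted p = 0.137, limma), though the interval nearly reached 0. The differences were 1.11, 1.58 and 0.23 within numbers 1, 2 and 5.

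For mmu-miR-191-3p the values were 33.7, 0 and 19.1 CPM in T cell blasts 1, 2 and 5, from 9, 0 and 4 reads, and 25.1, 10.9 and 34.7 CPM in small EVs 1, 2 and 5, from 12, 5 and 10 reads. The single 0, in T cell blasts 2, allows up to 3 of 279737 reads, or 11.0 CPM, which is above the 10.9 CPM of small EVs 2. A difference between the groups was not detectable at this depth (log2 difference 1.33, standard error 1.28, 95% interval -1.64 to 4.30, adjusted p = 0.566 in limma), and exact permutation gave a 2-sided p of 0.6. The fitted difference of this arm rests on the library with no read, and it was -0.24 without T cell blasts 2. With the block it did not pass either (adjusted p = 0.276, limma), and it was higher in small EVs in 2 of 3 numbers.

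Both precursors were read almost wholly from the 5p arm, in cells and in small EVs alike. Over all 6 libraries, Mir191 gave 129664 reads of its 5p arm and 40 of its 3p arm. The 5p share was 99.93%, 100% and 99.97% in T cell blasts 1, 2 and 5 and 99.96%, 99.99% and 99.95% in small EVs 1, 2 and 5. The mean share was 99.97 ± 0.03% (SD, n = 3) in cells and 99.97 ± 0.02% in small EVs (exact permutation test, 2-sided p = 1.0). Among 116 precursors with both arms listed, a major arm of 99.97% ranked 2, where the median was 93.4%. Mir191 thus stood near the extreme of arm preference among these 116. Precursors with a minor arm too rare to be listed are not counted, and a share this high also needs a precursor with many reads.

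Mir425 was less one-sided, with a major arm of 97.7% that ranked 40 of the 116. Its 5p share was 98.8%, 99.1% and 96.4% in T cell blasts 1, 2 and 5, and 98.0%, 97.8% and 96.5% in small EVs 1, 2 and 5. The mean share was 98.1 ± 1.5% (SD, n = 3) in cells and 97.4 ± 0.79% in small EVs, a difference of -0.64 percentage points within the spread of the cells (exact permutation test, 2-sided p = 0.6). In both groups the lowest share was that of number 5.

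The ratio of the 2 dominant arms does not depend on the scaling between libraries, because it is formed within each library. There were 40.9, 41.9 and 36.2 reads of mmu-miR-191-5p per read of mmu-miR-425-5p in T cell blasts 1, 2 and 5, and 42.3, 52.7 and 34.4 in small EVs 1, 2 and 5. Small EVs held both the highest and the lowest ratio, so the groups overlapped fully. The ratio averaged 39.7 ± 3.08 in cells and 43.1 ± 9.21 in small EVs (SD, n = 3 each). The log2 ratio differed by 0.10 between the groups (exact permutation test, 2-sided p = 0.7), which is less than its SD of 0.31 among small EVs. With libraries of the same number taken as pairs, the exact sign-flip test gave p = 0.75, where 3 pairs can give no p under 0.25.

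**Figure D2:**
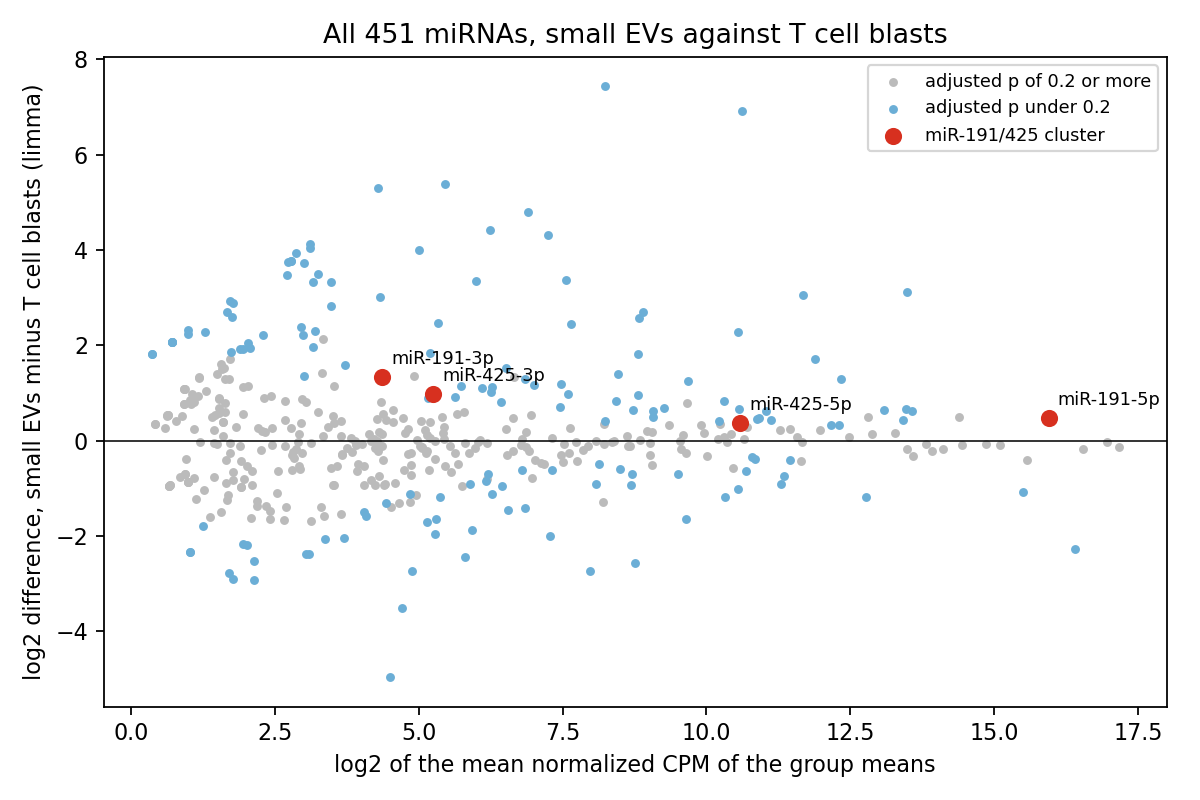
Log2 difference (small EVs minus T cell blasts, limma) of the 451 miRNAs against the log2 of the mean of both group means in CPM, with the cluster in red and other miRNAs past an adjusted p of 0.2 in blue. The 5p arms, mmu-miR-191-5p at 0.47 and mmu-miR-425-5p at 0.36, lie at the abundant end and within the range of other miRNAs there, and the 3p arms lie among rare miRNAs, where the differences spread widely.

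As the plot of difference against abundance shows, the shift of mmu-miR-191-5p was modest beside those of other miRNAs. Among the 64 miRNAs with a mean of at least 1000 CPM, 20 were called higher and 11 lower in small EVs, with a median log2 difference of 0.08. By log2 difference mmu-miR-191-5p ranked 16 and mmu-miR-425-5p ranked 21 of these 64. Relative to the median of all 451 miRNAs, which was 0.02, the difference of mmu-miR-191-5p was 0.45 and that of mmu-miR-425-5p was 0.35.

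Since mmu-miR-191-5p is used as a reference for qPCR, it was set beside 13 other miRNAs that are used in the same way. Of these 13 reference candidates, 3 (23.1%) were called higher in small EVs, 1 lower, and 9 did not pass, which is close to the 21.1% higher and 12.4% lower of all miRNAs, and their median log2 difference was 0.04, against 0.02 for all miRNAs. The 3 higher ones were mmu-let-7a-5p, of the let-7 family (9462 ± 886 CPM and 14801 ± 3226 CPM in cells and EVs, SD, n = 3 each, log2 difference 0.63, adjusted p = 0.0514, limma), mmu-miR-361-5p (428 ± 72.9 CPM and 653 ± 77.7 CPM, 0.61, adjusted p = 0.0530) and mmu-miR-186-5p (9300 ± 277 CPM and 12527 ± 322 CPM, 0.43, adjusted p = 0.0352). The lower one was mmu-miR-423-5p, at 1777 ± 394 CPM and 784 ± 172 CPM in cells and EVs (log2 difference -1.18, adjusted p = 0.00937, limma). Its sister arm, mmu-miR-423-3p, did not pass (0.21, adjusted p = 0.286, limma), so the arms of a single reference precursor gave unlike differences.

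The remaining reference candidates that did not pass had log2 differences of 0.23 for mmu-miR-103-3p, 0.08 for mmu-miR-93-5p, 0.04 for mmu-miR-484, 0.02 for mmu-miR-320-3p, -0.08 for mmu-miR-16-5p and for mmu-miR-30e-5p, -0.17 for mmu-miR-26a-5p and -0.57 for mmu-miR-24-3p. Of these, mmu-miR-24-3p was called lower once the replicate number was a block (adjusted p = 0.0138 in limma, 0.00467 in edgeR), and it passed in 8 of 17 alternatives. Under another scaling or without 1 library the sign turned for each of these candidates except mmu-miR-103-3p and mmu-miR-24-3p. Over all 6 libraries together, the SD of log2(CPM + 1) was 0.29 for mmu-miR-191-5p and 0.29 for mmu-miR-425-5p, which placed them 10th and 9th of 15 from the steadiest. The lowest SDs were 0.10 for mmu-miR-93-5p, a member of the miR-17 family, 0.11 for mmu-miR-16-5p and 0.13 for mmu-miR-423-3p, and the highest was 0.70 for mmu-miR-423-5p.

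**Figure D3:**
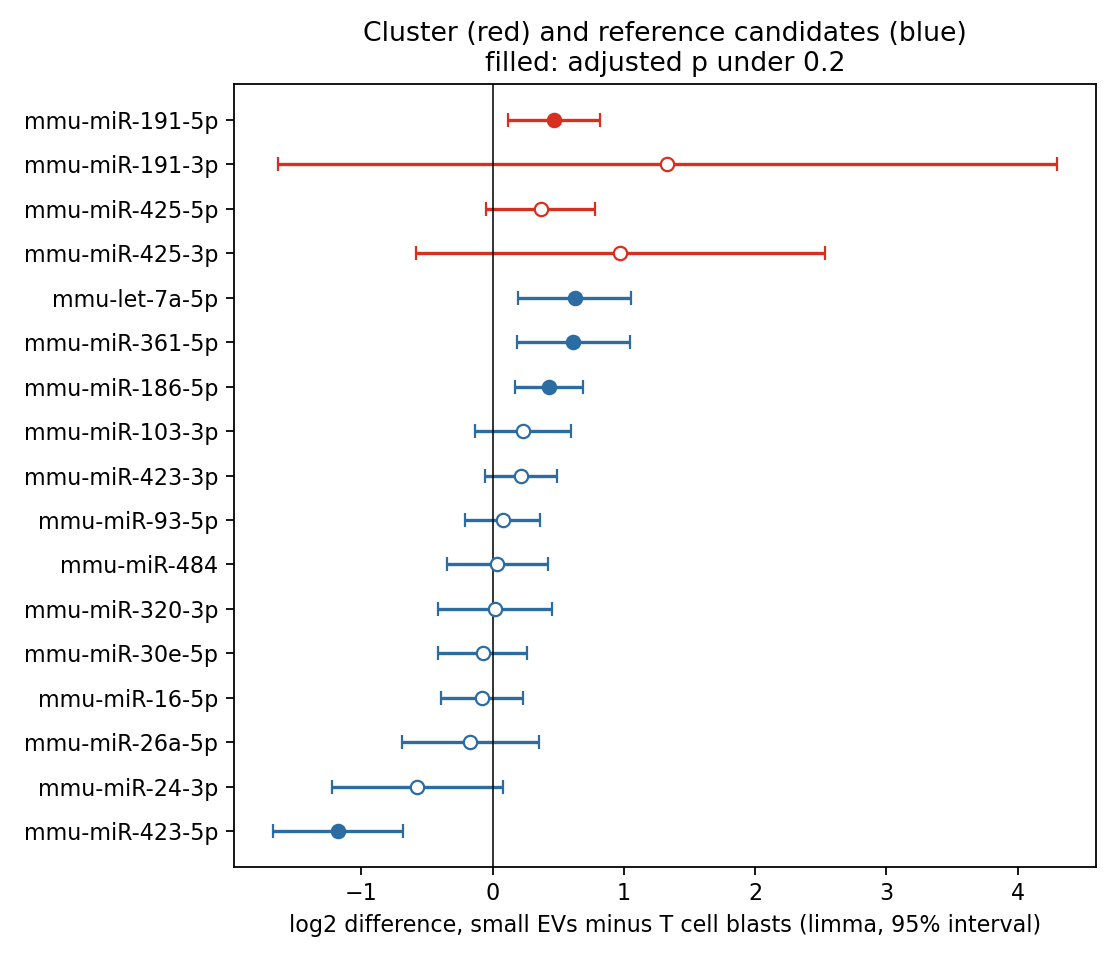
Log2 difference (small EVs minus T cell blasts) with its 95% interval from limma for the 4 arms of the cluster in red and 13 reference candidates in blue, with filled points past an adjusted p of 0.2. The point of mmu-miR-191-5p lies at 0.47, below mmu-let-7a-5p and mmu-miR-361-5p and above mmu-miR-186-5p, while 9 of 13 candidates have open points.

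Ratios to the reference candidates, formed within a library, use no scaling between libraries. The ratio of mmu-miR-191-5p to the candidate was higher in small EVs without overlap of the groups for 6 of 13 candidates (mmu-miR-16-5p, mmu-miR-423-3p, mmu-miR-423-5p, mmu-miR-320-3p, mmu-miR-24-3p and mmu-miR-30e-5p) and overlapped for 7. Against all 282 other miRNAs with reads in every library, it was higher without overlap for 37.6%. The difference in log2 ratio ranged from -0.16 against mmu-let-7a-5p to 1.65 against mmu-miR-423-5p, with a median of 0.43, and was above 0 for 11 candidates and below 0 for 2. All of these ratios share the values of mmu-miR-191-5p, so they are not separate results.

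If mmu-miR-191-5p itself was used to scale the libraries, the calls among all 451 miRNAs became 58 higher and 123 lower, from 95 and 56, and the median log2 difference became -0.41. Of the reference candidates 0 were then called higher and 7 lower. Under the same scaling the log2 difference of mmu-miR-425-5p was -0.10. This scaling lowers all other miRNAs by the difference of mmu-miR-191-5p, so these counts restate that difference and are no separate result.

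The miRNAs whose levels over the 6 libraries were most like that of mmu-miR-191-5p were taken from 173 miRNAs with a mean of at least 50 CPM, by Pearson's r of log2(CPM + 1). Their mature sequences are shown, with seeds in capitals, to compare them with that of mmu-miR-191-5p.
mmu-miR-423-3p: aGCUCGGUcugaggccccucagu
mmu-miR-107-3p: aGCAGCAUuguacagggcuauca
mmu-miR-19a-3p: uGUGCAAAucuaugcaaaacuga
mmu-miR-19b-3p: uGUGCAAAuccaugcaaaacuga
mmu-miR-146b-5p: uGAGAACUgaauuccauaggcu
The r was 0.99 for mmu-miR-423-3p and mmu-miR-107-3p, 0.97 for mmu-miR-19a-3p, 0.96 for mmu-miR-19b-3p and 0.96 for mmu-miR-146b-5p. None of these carries the seed of a member of the cluster. The points of such an r are the same 6 libraries with the same depth and scaling, in 2 groups, so it is a description only. The 2 members of the miR-19 family differ in few bases, and their reads can be hard to separate. Of the 5, mmu-miR-19a-3p, a miRNA of the miR-17~92 cluster, was called higher (1609 ± 111 CPM and 2249 ± 250 CPM in cells and EVs, log2 difference 0.48, adjusted p = 0.0454, limma), as was mmu-miR-146b-5p, a miRNA of inflammatory signaling (558 ± 321 CPM and 2448 ± 241 CPM, 2.27, adjusted p = 0.00416). The r with mmu-miR-425-5p was 0.72, which ranked 38 of 173, so the other precursor of the cluster was not among the most alike.

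Since the cluster lies within Dalrd3 as RefSeq draws it, 37 measured miRNAs from introns of protein-coding genes were also described. Of these, 13 (35.1%) were called higher, 4 lower, and 20 did not pass, beside 21.1% higher and 12.4% lower among all miRNAs, with a median log2 difference of 0.08 beside 0.02. The most abundant that is not a reference candidate was mmu-miR-342-3p, from Evl, at 2348 ± 308 CPM and 20575 ± 3561 CPM in cells and EVs (log2 difference 3.13, adjusted p = 2.96e-05, limma). It was followed by mmu-miR-25-3p, from Mcm7 (0.65, adjusted p = 0.0253), and mmu-miR-26b-5p, from Ctdsp1 (0.32, adjusted p = 0.181), both called higher, and by mmu-miR-301a-3p, from Ska2, which did not pass (-0.03, adjusted p = 0.936). The call of mmu-miR-26b-5p was lost in 10 of 17 alternatives, among them edgeR (adjusted p = 0.263), edgeR with the block (0.233), DESeq2 (0.279) and libraries scaled on the miRNAs below 5% (0.521). The difference of mmu-miR-191-5p lay above that of mmu-miR-26b-5p and below that of mmu-miR-25-3p.

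Short motifs in the members were counted on the mature strand. GGAG, a motif bound by the protein hnRNPA2B1, which is known to load miRNAs into exosomes of human T cells, occurs in 0 of the 4 members and in 29 (7.84%) of the 370 listed miRNAs matched to a RefSeq sequence. All 4 members contain the dinucleotide CG, which occurs in 127 (34.3%) of the 370, and 2 of them, mmu-miR-191-5p and mmu-miR-425-3p, contain it in the seed, as do 45 (12.2%) of the 370. A match only describes the letters of a sequence, and no binding was measured.

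The call of mmu-miR-191-5p depended on 1 library and on the scaling. It was lost without small EVs 2 (log2 difference 0.38, adjusted p = 0.255, limma), the library with the highest level, and with libraries scaled on the miRNAs below 5% (0.30, adjusted p = 0.213, limma). Under that scaling the median of all miRNAs was -0.14, so mmu-miR-191-5p stood 0.43 above it, close to the 0.45 of the deposited scaling. With all libraries set to an equal sum the median was 0.19 and the difference of mmu-miR-191-5p was 0.64, again 0.45 above the median. For mmu-miR-425-5p the opposite held, since it passed without T cell blasts 5 (0.52, adjusted p = 0.0587, limma), the library of cells with its highest level, and with an equal sum (0.54, adjusted p = 0.0631, limma).

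**Figure D4:**
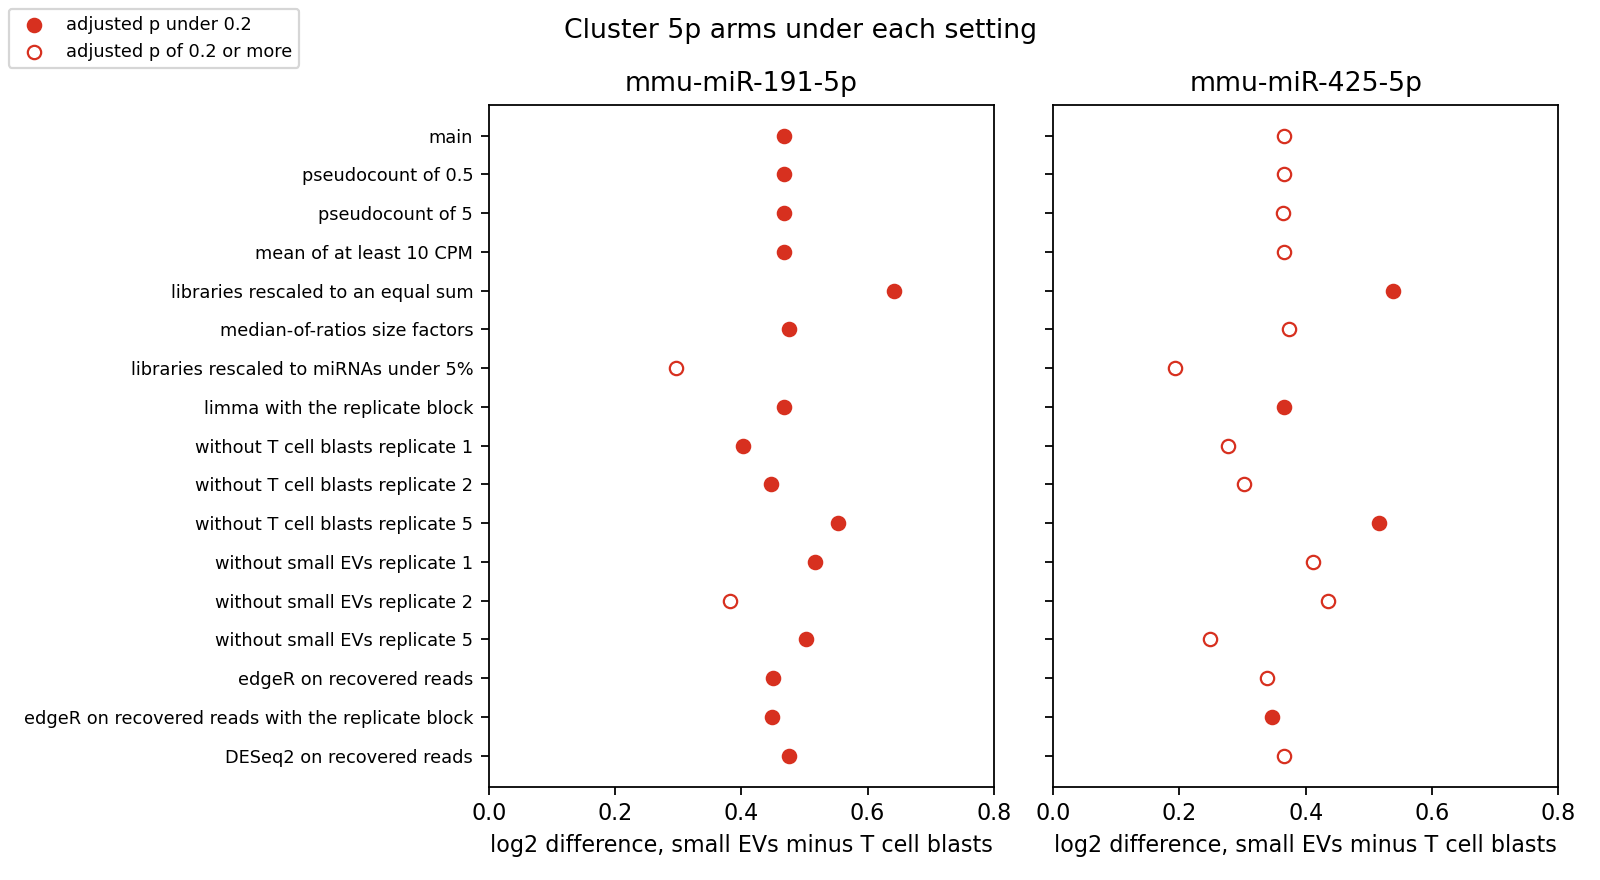
Log2 difference (small EVs minus T cell blasts) of mmu-miR-191-5p and mmu-miR-425-5p under the main fit and the alternative settings named on the axis, with filled points past an adjusted p of 0.2. The scaling to mmu-miR-191-5p is not plotted. All plotted points lie above 0, from 0.30 to 0.64 for mmu-miR-191-5p and from 0.19 to 0.54 for mmu-miR-425-5p.

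The direction of both 5p arms was thus the same under each plotted setting, while the call moved for both. The scaling to mmu-miR-191-5p, which sets that miRNA to no difference by construction, is not among them, and there mmu-miR-425-5p was at -0.10.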

How the data were processed

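Small RNA libraries of T cell blasts and small EVs (3 each, single reads of 75 bp) were grouped by their labels. The authors removed adaptors with Cutadapt, kept trimmed reads above a minimum length, mapped them to mature miRBase miRNAs with bowtie or BWA, and estimated counts with RSEM (version 1.17, with CASAVA 1.8.2, per the submitters' processing notes). The deposited signal is a CPM normalized by TMM with edgeR, with at least 1 CPM in 3 libraries. It sums to 907580 to 1131533 per library. All values (100%) were whole reads within 0.05 of a read.

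Differences were tested with limma 3.58.1 (R 4.3.3) on log2(CPM + 1) over 451 miRNAs, without a block, at a Benjamini-Hochberg adjusted p of 0.2. The size of a difference between rare arms depended on the method. For mmu-miR-191-3p it was 1.33 in limma, 0.34 in edgeR and 0.42 in DESeq2. For mmu-miR-425-3p it was 0.97, 0.69 and 0.71. Exact permutation tests used SciPy 1.17.1. The fits were tested on simulated data. On recovered reads, edgeR 4.0.16 called 82 miRNAs higher and 64 lower, and DESeq2 1.42.0 called 64 and 41. Other alternatives were pseudocounts of 0.5 and 5, a mean of at least 10 CPM, 4 scalings, each library left out, the replicate block and an adjusted p of 0.05.

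Deviations from the group means correlated between same-numbered libraries (r over 284 miRNAs of 0.15, 0.16 and 0.34 for numbers 1, 2 and 5). The numbers were taken as pairs for the block, the differences within numbers and the sign-flip test, and not in the main fit. The labels do not state this pairing. For small EVs 1 the r with T cell blasts 2 was 0.17, and for small EVs 2 the r with T cell blasts 1 was 0.11. These values do not separate numbers 1 and 2, so calls made only with the block rest on an assumed pairing.

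Members and lists were chosen with earlier results of these data known. Named miRNAs are the members, the reference candidates, 2 neighbors in level on each side of mmu-miR-191-5p, the 5 most correlated with it, the 4 most abundant intronic miRNAs that are not reference candidates, and any that share a seed. Sequences are from RefSeq (GRCm38.p6), which matched 370 of 451 names.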

Additional observations from a re-analysis of the deposited data

How the results depend on the processing

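The difference of mmu-miR-191-5p was positive under each alternative run for it (0.30 to 0.64, adjusted p 0.0156 to 0.255), which leaves out the scaling to mmu-miR-191-5p, where it is 0 by construction. It did not pass with libraries rescaled to miRNAs under 5% (0.30), at an adjusted p of 0.05 (0.47) or without small EVs 2, and ranged from 0.38 to 0.55 without one library. mmu-miR-425-5p passed with an equal sum (0.54) and with the block in limma (0.36) and edgeR (0.35), and ranged from 0.25 to 0.52 without one library. mmu-miR-425-3p passed with the block in limma (0.97) and edgeR (0.78) and without T cell blasts 5, with 0.50 to 1.70 without one library. For mmu-miR-191-3p leaving out one library gave -0.24 to 2.31. The replicate block changed no other call of a member.

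Over all miRNAs, a mean of at least 10 CPM, with fewer tested, left 61 higher, an adjusted p of 0.05 left 58 higher and 29 lower, and scaling to mmu-miR-191-5p gave 58 and 123. Without one library the counts were 77 to 103 higher and 46 to 67 lower. The main counts were 3 higher and 1 lower for reference candidates and 13 and 4 for intronic miRNAs. Reference candidates had 2 lower with a pseudocount of 5, a mean of 10 CPM, miRNAs under 5%, the block in limma or edgeR, or edgeR alone, 5 higher with an equal sum, 1 higher at an adjusted p of 0.05, and 0 higher and 7 lower scaled to mmu-miR-191-5p. Without one library they had 3 to 5 higher and 1 to 2 lower. Intronic miRNAs had 1 lower with an equal sum or at an adjusted p of 0.05, 4 higher and 14 lower scaled to mmu-miR-191-5p, and 11 to 13 higher and 2 to 4 lower without one library.

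Signs reversed, always for values that did not pass, with an equal sum for mmu-miR-16-5p (0.093), mmu-miR-26a-5p (0.0034), mmu-miR-30e-5p (0.10) and mmu-miR-301a-3p (0.15), with miRNAs under 5% for mmu-miR-93-5p (-0.10), mmu-miR-484 (-0.14), mmu-miR-320-3p (-0.15) and mmu-miR-19b-3p (-0.030), and in edgeR for mmu-miR-320-3p (-0.018). Without one library the ranges were -0.082 to 0.20 for mmu-miR-320-3p, -0.20 to 0.022 for mmu-miR-30e-5p, -0.10 to 0.13 for mmu-miR-484, -0.14 to 0.10 for mmu-miR-301a-3p and -0.33 to 0.048 for mmu-miR-26a-5p. They were -0.054 to 0.26 for the log2 ratio of mmu-miR-191-5p to mmu-miR-425-5p, and -0.017 to 0.018 percentage points for the 5p share of Mir191. The cause of these changes was not tested. Depth limits the 3p arms, at 0 to 21 reads per library.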
